A study of Mus musculus with 12 samples.

Results

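Small RNAs of 18 to 40 nt from the testis of 13-month-old C57BL/6 mice were compared between wild-type (WT) animals and animals labelled as knockout (KO) for Gpx5, also written Gpx5-/-. These are 2 of the 12 libraries of a study of testis and epididymis, and they were chosen by their labels (tissue testis, genotype WT or KO). By the protocols in the labels, testes of 7 mice per genotype entered a pool, so each genotype is 1 library and there is no replicate error, no test and no p-value between genotypes. The deletion is given by the labels without its extent, and it is not restricted to a tissue by anything in them. The files hold counts for 824515 distinct sequences and 8567091 classified reads in WT, and for 919815 sequences and 9834580 classified reads in KO. Levels are given as RPM, reads scaled so that the classified reads of a library sum to 1e6, differences as log2 of KO over WT, and intervals are exact at 95% and cover counting error only.

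Gpx5 encodes a secreted glutathione peroxidase of the epididymis, and the testis lies upstream of that tissue. Male germ cells carry piRNAs, small RNAs bound by PIWI proteins. In meiotic and haploid cells most of them are cut from long precursor transcripts, many of them non-coding, and they typically begin with U (T in the files). MILI binds shorter piRNAs than MIWI does. miRNAs are shorter guides of Argonaute proteins that find targets through the seed, bases 2 to 8. The family of miR-34 and miR-449a and a cluster of miRNAs on the X chromosome are abundant in spermatogenic cells, whereas fragments of tRNAs, snRNAs, snoRNAs and rRNAs come from RNAs that all cells hold.

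The mature sequences of miRNAs that the results turn on are shown to let the reader see which share a seed, marked by capitals. RefSeq (GRCm38.p6) held 647 of the 797 mature names listed in these libraries.
let-7a-5p: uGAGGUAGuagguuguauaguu
let-7c-5p: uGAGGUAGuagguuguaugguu
let-7f-5p: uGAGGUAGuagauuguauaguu
let-7g-5p: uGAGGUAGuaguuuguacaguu
miR-10a-5p: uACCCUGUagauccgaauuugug
miR-10b-5p: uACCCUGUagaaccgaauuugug
miR-34b-5p: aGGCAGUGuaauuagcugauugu
miR-449a-5p: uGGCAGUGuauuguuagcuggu
miR-34a-5p: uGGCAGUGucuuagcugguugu
miR-871-3p: uGACUGGCaccauucuggauaau
miR-881-3p: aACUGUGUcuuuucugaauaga
miR-743b-3p: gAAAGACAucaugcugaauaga
miR-880-3p: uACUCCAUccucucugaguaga
miR-148a-3p: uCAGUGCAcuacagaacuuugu
The let-7 members share 1 seed, miR-10a-5p and miR-10b-5p share another, and so do miR-34b-5p, miR-449a-5p and miR-34a-5p. The members of the X-linked cluster shown here each have their own seed. In that build miR-743b-3p lies at chrX:66777266-66777287, miR-880-3p at chrX:66800540-66800561, miR-881-3p at chrX:66801954-66801975 and miR-871-3p at chrX:66810438-66810460, all on the minus strand.

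Abundant piRNA reads whose bases overlap reads of only 1 annotated transcript are shown next, as the precursors are compared below. The capital marks the first base, T in each. The gene name comes from reads that the authors matched to its RefSeq transcript.
Tbl2 (piR-23722): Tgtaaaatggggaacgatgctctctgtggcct
1700001L05Rik (piR-139672): Tgatactcggaatttggcacagctctgctt
1700001L05Rik (piR-112989): Tacgaaattccagtagactctgacttcaga
1700029M20Rik (piR-18378): Tgccctgagcatgttgatctctttgtgcct
Gm10619 (piR-137939): Taactctaaatggactttggccccaggt
1700009C05Rik (piR-2342): Taaaatgagaacacgagaaaactgctaagt
4931408D14Rik (piR-132644): Tgggactgagaatgaaagagttggtcttt
The Gm10619 read was at 611 RPM in WT and 631 in KO, and the 1700029M20Rik read at 676 and 675. The Tbl2 read was at 1565 and 1913 RPM, the 1700009C05Rik read at 1109 and 720, and the 4931408D14Rik read at 415 and 253. Of the pair from 1700001L05Rik, piR-139672 was at 1405 RPM in WT and 1036 in KO, but piR-112989 was at 600 and 17.2. Reads that share the start of piR-112989, whatever their end, differed with it, 1389 RPM in WT and 36.2 in KO. Summed reads of its gene differed by -0.08 on the log2 scale, but that sum holds only reads under unlabelled GenBank entries. It leaves out reads under piRNA entries such as these.

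A minority of exact sequences stood far apart between the files, which bears on every value that rests on 1 sequence. Of 6407 sequences at 20 RPM or more in a library, 78.1% were within 2-fold and 491 (7.66%) differed over 16-fold, 189 of them higher and 302 lower in KO. Sequences are ranked in each file, and 23 of the first 100 ranks in WT and 22 in KO have no line. The 306962 sequences listed in both files hold 92.1% of the reads of each library, yet 29.5% of them carry another entry name in each file and 2.07% another class. The canonical read of miR-871-3p is an example, shown with the reads that have 1 more base at the start, which is in capitals.
miR-871-3p: tgactggcaccattctggataat
with A added: Atgactggcaccattctggataat
with C added: Ctgactggcaccattctggataat
with G added: Gtgactggcaccattctggataat
with T added: Ttgactggcaccattctggataat
The canonical read was at 58.2 RPM in WT and 8400 in KO. With an added base the values were 96.1 and 64 RPM for A, 81.8 and 62.4 for C, 39.2 and 28.3 for G, and 224 and 186 for T. Reads that keep the usual start but end elsewhere were higher in KO like the canonical read, 4.67 and 401 RPM with T added at the end, 0 and 24.4 with A, and 7.24 and 38.1 when 1 base shorter. Reads of this miRNA that start anywhere else than the usual base summed to 2370 RPM in WT and 622 in KO, the other direction, and over all starts the sums were 2450 and 9617. Whether the low values come from reads absent in the pool or from lines absent in the file was not tested. For miRNAs, sums are therefore given beside medians over sequence variants.

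The composition of the testis small RNAs was nearly the same in both genotypes. piRNA entries made up 64.1% of classified reads in WT and 62.8% in KO, a log2 difference of -0.03. miRNAs made up 17.1% and 17.3% (log2 0.02), mRNA fragments 9.73% and 9.97% (0.04), unlabelled GenBank entries, mostly non-coding transcripts, 5.47% and 5.66% (0.05), and tRNA fragments 1.48% and 1.46% (-0.02). Class medians over single sequences with at least 20 reads in each library gave the same picture, 0.02 over 19369 piRNA sequences and 0.03 over 1635 miRNA sequences.

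Fragments of abundant structural RNAs were higher in KO. rRNA fragments were 1.01% of reads in WT and 1.37% in KO, 1.36-fold (interval 1.35 to 1.37), and their median sequence differed by 0.20 on the log2 scale. On that scale the rRNA share differed by 0.44, by 0.28 without the 10 most abundant sequences and by 0.03 in counts of distinct sequences at equal depth. snoRNA fragments were 0.423% and 0.604%, 1.43-fold (1.41 to 1.45), with a median sequence at 0.32. snRNA fragments were 0.123% and 0.272%, 2.21-fold (2.16 to 2.26), the only class past 2-fold, with a median sequence at 0.21. Without sequences that differed over 16-fold the snRNA difference was 0.28 on the log2 scale in place of 1.15. Fragments of other Rfam families were lower in KO, 0.356% and 0.316% (log2 -0.17), and mitochondrial RNA was at 0.175% and 0.195% (0.15).

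**Figure D1:**
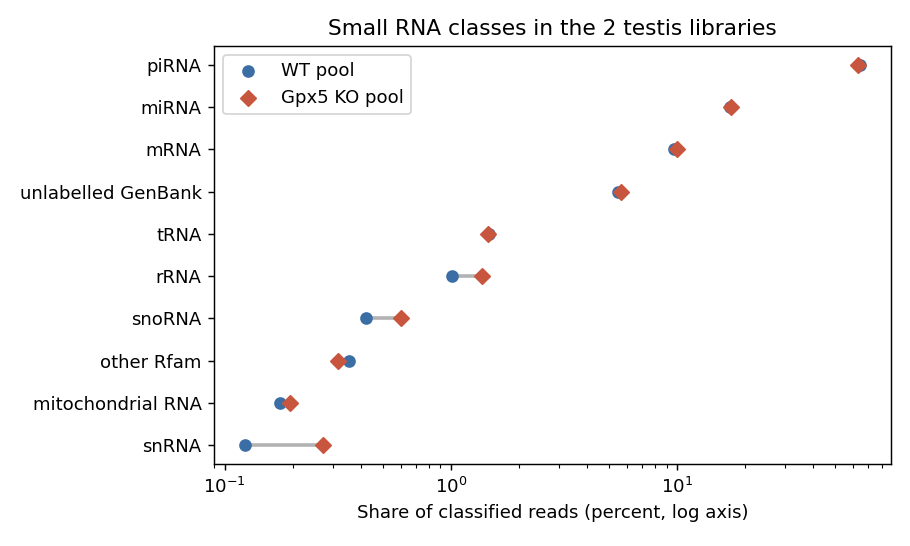
Share of classified reads (percent, log axis) of each small RNA class in the WT pool (circles) and the Gpx5 KO pool (diamonds), 1 library each. Points of piRNA, miRNA, mRNA and tRNA nearly coincide, while snRNA moves from 0.123% to 0.272%.

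Both libraries were testis-like by most of the markers compared, and most of these were similar between them. The piRNA share of 64.1% and 62.8% compares with 0.591% to 15.8% in the 6 epididymal libraries of the same age. The 15.8% was WT caput, and the next highest was 1.37% in KO corpus. Meiotic and spermatid miRNAs summed to 13411 RPM in WT and 17342 in KO testis, against 297 to 3581 in those 6 libraries. The X-linked cluster differed between the testis libraries and was also high in WT caput. In the count made over all tissues it was at 5614 RPM in WT and 14293 in KO testis, and at 5263 in WT caput. Epididymal epithelial miRNAs (miR-200 family, miR-141, miR-429, miR-203 and miR-205) summed to 291 RPM in WT and 380 in KO testis, against 2603 to 75519 RPM in those 6 libraries. In testis miR-203-3p gave 190 RPM in WT and 283 in KO. Other members were at 42 and 45.4 (miR-429-3p), 31.3 and 30.8 (miR-200a-3p), 13.5 and 7.83 (miR-141-3p), 9.34 and 7.83 (miR-200b-3p), and 5.02 and 5.08 (miR-200c-3p). The miR-202 pair, enriched in Sertoli cells, summed to 104 RPM in WT and 111 in KO testis. The targeted gene could not check the genotype here, since fragments of Gpx5 were at 0 reads in both testis libraries. A count of 0 allows up to 3 reads, 0.35 RPM in WT and 0.305 in KO. In caput, where Gpx5 is expressed, its fragments were at 58.4 RPM in the WT and 1.36 in the KO library. In pooled tissue, fewer cells of a type and less small RNA per cell cannot be told apart.

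piRNA levels differed more often by entry name than by sequence. Among 5510 entries at 20 RPM or more in either library, 1058 were higher in KO (19.2%) and 1265 lower (23%) at 2-fold with an interval that excludes 1. An entry could meet that limit through the library where it was higher. Of 4942 single piRNA sequences 7.73% were higher and 14.4% lower, and of 4976 entries with the WT file's name for sequences in both files, 6.41% and 12.5%. With reads grouped by their first 20 bases, which keeps the 1 start of a piRNA whatever its end or its entry name, 4315 groups were compared. Of these 311 were higher (7.21%) and 554 lower (12.8%), 80.2% lay within 2-fold, and the quartiles were -0.40 and 0.40 around a median of 0.06. Of the 93 groups at 1000 RPM or more, 86 lay within 2-fold.

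Abundant entries differed in how far their values rested on the name. piR-142490 was at 5954 RPM in WT and 6047 in KO, and piR-139487 at 3488 and 3643. The values of piR-125360 were 4596 RPM (WT) and 8006 RPM (KO), with a median of 1.02 on the log2 scale over its 29 sequences, the clearest difference among the 6 entries with most reads. piR-8514 was at 8491 RPM in WT and 1358 in KO, but when a sequence listed in both files was kept under its WT entry, the values were 8491 and 6162. piR-13982 went the other way, 3229 and 6591 RPM by the files' names and 3229 and 3545 with 1 name per sequence.

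Among entries with the most extreme ratios, some differed by name alone and some by sequence too. piR-101973 was at 0.467 RPM in WT and 191 in KO by name, yet its most abundant sequence was at 166 and 190 RPM. The most abundant sequence of piR-6754 was likewise at 157 and 175 RPM, against 0.467 and 176 by name. Among entries lower in KO, piR-128782 was at 273 and 0.712 RPM by name and its most abundant sequence at 270 and 328. In contrast piR-20196 (259 and 0.102 RPM) and piR-104529 (0.117 and 270 RPM) differed in their sequences as well. piR-6346, 609 and 1.32 RPM by name, differed by sequence too, with its most abundant sequence counted 4636 and 43 times and close variants that summed to 170 and 21.8 RPM. Its sparse reads with an added first base had the other direction for A (2.92 and 7.22 RPM) and were near equal for T (6.19 and 5.8).

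**Figure D2:**
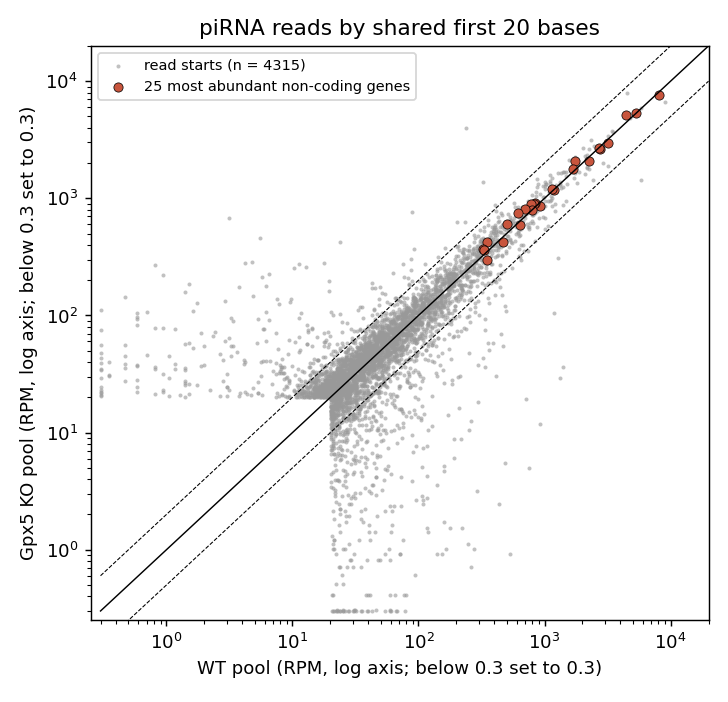
RPM in the WT pool (x) and the Gpx5 KO pool (y) on log axes for 4315 groups of piRNA reads that share their first 20 bases (grey) and for the 25 non-coding genes with most reads (red). Solid and dashed lines mark equality and 2-fold, and all 25 genes lie between the dashed lines.

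Reads of the most abundant long non-coding transcripts were near equal between the libraries. Over the 25 genes with most reads among unlabelled GenBank entries, annotated as long non-coding RNAs or transcribed pseudogenes, the log2 difference ranged from -0.25 to 0.29, with a median of 0.08. The long non-coding RNA 1700001L05Rik was at 8051 RPM in WT and 7593 in KO, Gm10619 at 5294 and 5312, and 1700042G15Rik at 3168 and 2960. D130017N08Rik was at 2775 and 2645 RPM, 1700029M20Rik at 2730 and 2679, and 4931408D14Rik at 2244 and 2096. None of these 6 differed by more than 0.10 on the log2 scale. 1700020N18Rik (4418 and 5194 RPM) and 1700009C05Rik (1753 and 2092 RPM) were somewhat higher in KO.

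For most of these genes the majority of reads looked like piRNAs. Reads of 24 to 32 nt that begin with T made up 89.2% of the 4931408D14Rik reads in WT and 87.3% in KO, and 73.7% and 67.5% of those of 1700001L05Rik. Gm10619 had fewer, 33.4% and 35.8%, and so did 1700020N18Rik, 38.4% and 27.9%. For 1700009C05Rik the share was 65.6% and 48.7%. The higher sums of 1700020N18Rik and 1700009C05Rik in KO thus came with a lower share of piRNA-like reads. Of all 73 long non-coding RNA and pseudogene entries at 20 RPM or more, 60 lay within 2-fold, 5 were called higher (6.85%) and 8 lower (11%), and none of these was among the 25 with most reads. With the snoRNA, snRNA and protein-coding genes among unlabelled entries there were 80 genes, of which 8 were called higher (10%) and 9 lower (11.2%).

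Fragments of messenger RNAs were likewise near equal. Of 261 mRNAs at 20 RPM or more, 20 were higher (7.66%) and 15 lower (5.75%), and the median was 0.04. 1700006A11Rik had most reads, 3032 RPM in WT and 3220 in KO. Ddx19b, an RNA helicase gene, was at 1094 and 1045 RPM, and Ago2, which encodes an Argonaute protein, at 671 and 662. Stox1 was at 1444 and 1704 RPM, Asb1 at 1101 and 1415, and Tbl2 at 845 and 1360. The Tbl2 difference, 0.69 on the log2 scale, had a median of 0.15 over 98 sequences. These reads too were mostly piRNA-like, 82.7% and 79.1% for 1700006A11Rik and 75.4% and 70.1% for Ago2.

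piRNA reads were slightly longer in the KO library. In the KO library 24.6% of the piRNA reads of 24 to 32 nt were 24 to 28 nt long, against 28.7% in WT, and 75.4% against 71.3% were 29 to 32 nt. Reads of 26 nt went from 5.78% of all piRNA reads to 4.11%, reads of 25 nt from 2.94% to 1.94%, and reads of 32 nt from 3.09% to 3.95%. The peak stayed at 30 nt, with 29.9% in WT and 31.2% in KO.

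The same direction was seen within single piRNA starts. Among 1404 groups of reads with the same first 20 bases and at least 500 reads in each library, the share of 24 to 28 nt was lower in KO in 931 (66.3%) and higher in 374. The median share was 13.8% in WT and 11.8% in KO, but the median difference within a group was only -0.70 percentage points. Among the 1324 groups within 2-fold of each other in level, 893 were lower, with a median difference of -0.74 percentage points. Such groups come from the same 2 libraries and are not replicates.

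Longer reads in KO were not limited to piRNA entries. The mRNA class had 29.9% of its 24 to 32 nt reads at 24 to 28 nt in WT and 25.3% in KO, and unlabelled GenBank entries 24% and 21.8%. The mean length of tRNA fragments was 25.17 nt in WT and 25.43 in KO and that of miRNAs 22.16 and 22.25, whereas rRNA fragments were shorter in KO, 24.29 and 23.87 nt, and snoRNA fragments slightly so, 27.70 and 27.58. The mean length of snRNA fragments differed most, 24.84 nt in WT and 28.26 in KO. That class, at 1230 and 2721 RPM, holds a 31 nt U2 read at 14 RPM in WT and 927 in KO, described below. The mean without that read was not computed. The part of size selection in the length difference was not tested.

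Base composition also shifted slightly. The first base was T in 88.6% of piRNA reads in WT and 86.4% in KO, and in 66.6% and 61.9% of mRNA fragments. For unlabelled GenBank reads it was T in 70.9% and 64.3%. The tenth base was A, the mark of piRNAs made by cutting a target, in 32.7% and 34.4% of all piRNA reads. Among reads not starting with T, those shares were 44.8% and 47.9%. The most abundant read of piR-125360 begins with C and has A at base 10. It was at 3626 RPM in WT and 6328 in KO, so part of the shifts among piRNA reads comes from this read. The mRNA and unlabelled classes do not hold this read. Leaving out sequences over 16-fold apart does not remove it. The shares without it were not computed. Without the sequences that differed over 16-fold the first-base values of piRNA reads were 88.3% and 86.1%. Their share of 24 to 28 nt was 28.6% and 24.5%.

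**Figure D3:**
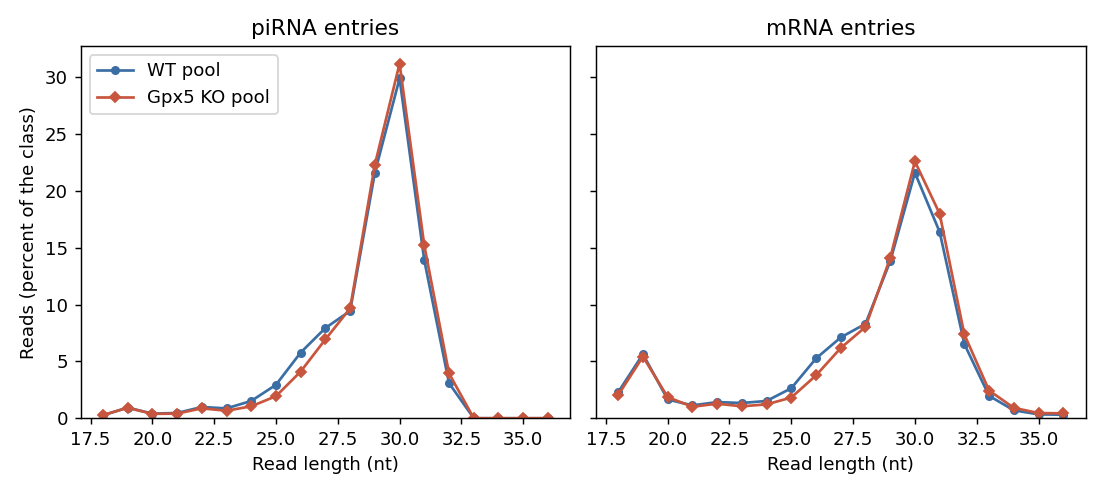
Length of reads matched to piRNA entries (left) and to mRNA entries (right), as percent of the class, in the WT pool (circles) and the Gpx5 KO pool (diamonds). In both panels KO lies below WT from 24 to 27 nt and above it from 29 to 32 nt.

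miRNA levels were close in the genotypes for nearly all members. Of 78 miRNAs at 100 RPM or more, 4 were higher (5.13%) and 6 lower (7.69%) in KO when all reads under a name were summed. A median over the sequence variants of a miRNA (reads holding its inner 15 bases) was available for 75, and 72 of these (96%) lay within 2-fold, with quartiles of -0.19 and 0.38. Of the 10 miRNAs called by name, 7 had a variant median within 2-fold and 1 had it past 2-fold in the other direction.

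The most abundant miRNAs differed by modest amounts. miR-10b-5p was at 24660 RPM in WT and 17519 in KO (log2 -0.49), miR-191-5p at 18666 and 13386 (-0.48), and miR-143-3p, a miRNA of smooth muscle and mesenchyme, at 15182 and 15347 (0.02). miR-34c-5p was at 11241 and 15222 RPM (0.44), miR-22-3p at 9479 and 13055 (0.46), and miR-181a-5p at 3746 and 5501 (0.55). The variant medians of these 6 had the same signs, -0.32, -0.37, 0.12, 0.33, 0.45 and 0.52. miR-30a-5p, at 4584 and 3502 RPM, did not keep its sign, with -0.39 by name and 0.14 by variant median.

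Members of some families had the same sign without passing 2-fold. In the let-7 family, whose members limit growth and stem cell genes in many tissues, all 9 compared names were higher in KO by 0.16 to 0.52 on the log2 scale, and all 8 variant medians were above 0 (0.19 to 0.48). The family sum was 5713 RPM in WT and 7302 in KO. let-7a-5p and let-7c-5p share their inner bases and so share 1 variant median of 0.27. The 3 compared miR-181 members were higher as well, with variant medians of 0.37 to 0.52.

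Some abundant miRNAs of the miR-10, miR-99/100 and miR-125 groups had the opposite sign. miR-10a-5p was at 1328 RPM in WT and 956 in KO with a variant median of -0.41, miR-100-5p at 1677 and 1238 with -0.34, miR-99a-5p at 584 and 339 with -0.65, and miR-125b-5p at 1446 and 824 with -0.61. These 4 were singled out after their values were seen. miR-99b-5p of the same groups was lower by name but higher by variant median (3.62) and by all starts, 748 and 2352 RPM. Over all 78 miRNAs the median by name was 0.06.

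miRNAs of meiotic and haploid germ cells showed no common direction. In this set, whose miR-34 and miR-449a families are required together for normal spermatogenesis and cilia, miR-34c-5p, miR-34b-3p (517 and 670 RPM) and miR-34c-3p (191 and 246) were higher in KO. miR-34b-5p (417 and 397 RPM) and miR-449a-5p (1046 and 806) were lower, and all 5 variant medians lay between -0.18 and 0.44. None of the 5 passed 2-fold.

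In the X-linked cluster the sum over 25 names was 5661 RPM in WT and 14979 in KO, but without miR-871-3p it was 5502 and 6371. Of its 11 compared members 3 were called higher and 1 lower by name, while the variant medians of the 11 ran from -0.98 to 0.73 with 6 above 0 and 5 below. miR-743b-3p was at 88.7 and 429 RPM by name with a variant median of 0.73, and the miR-465a/b/c-3p group at 355 and 761 RPM with 0.51. miR-880-3p, the member called lower, was at 184 and 81.9 RPM with -0.42. miR-741-3p (1029 and 919 RPM) and miR-881-3p (1785 and 2145 RPM) were within 2-fold by both measures.

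Only 2 of the miRNAs called by name, miR-486-5p and miR-34a-5p, passed 2-fold in the same direction by each of the following measures. These were all reads under the name, sequences listed in both files and the variant median, which counts sparse and abundant variants alike. Over all starts, miR-871-3p, miR-743b-3p (126 and 462 RPM), the miR-465a/b/c-3p group (566 and 1241), miR-148a-3p and miR-15b-5p also passed 2-fold as called. miR-880-3p (216 and 114 RPM) and miR-148b-3p (571 and 392) did not, and miR-99b-5p had the other direction. miR-486-5p, counted with the same-sequence miR-3107-5p and abundant in red blood cells and muscle, was at 28.7 RPM in WT and 176 in KO, with a variant median of 1.85 over 12 variants. Its 90 WT reads with another start gave -0.20. Another erythroid miRNA, miR-451a, was at 6.89 and 9.76 RPM, and the muscle miRNAs miR-1a-3p, miR-133a-3p and miR-206-3p summed to 0.584 and 1.22 RPM.

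miR-34a-5p, a p53 target that shares the seed of miR-34b-5p, was at 151 RPM in WT and 3.05 in KO, with a variant median of -1.51. Its variants spread widely, with quartiles of -5.80 and 0.35, and its reads with another start gave 0.08.

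The remaining miRNAs lower by name were not past 2-fold lower by variant median. miR-148a-3p was at 1858 RPM in WT and 155 in KO, with a variant median of -0.83, and over all starts at 2491 and 453. Its reads with other ends were lower in KO too, the most abundant at 555 and 183 RPM, and close variants summed to 708 and 271. With an added first base the values were 16 and 16.9 RPM for A, 12.5 and 13.3 for C, and 31.3 and 21.8 for T. miR-15b-5p was at 217 and 9.76 RPM with a variant median of -0.47 over 5 variants, and over all starts at 222 and 17.1. miR-148b-3p was at 207 and 99.2 RPM with a variant median of -0.37. miR-99b-5p was at 375 and 20.8 RPM by name, while its variant median was 3.62 in the other direction.

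**Figure D4:**
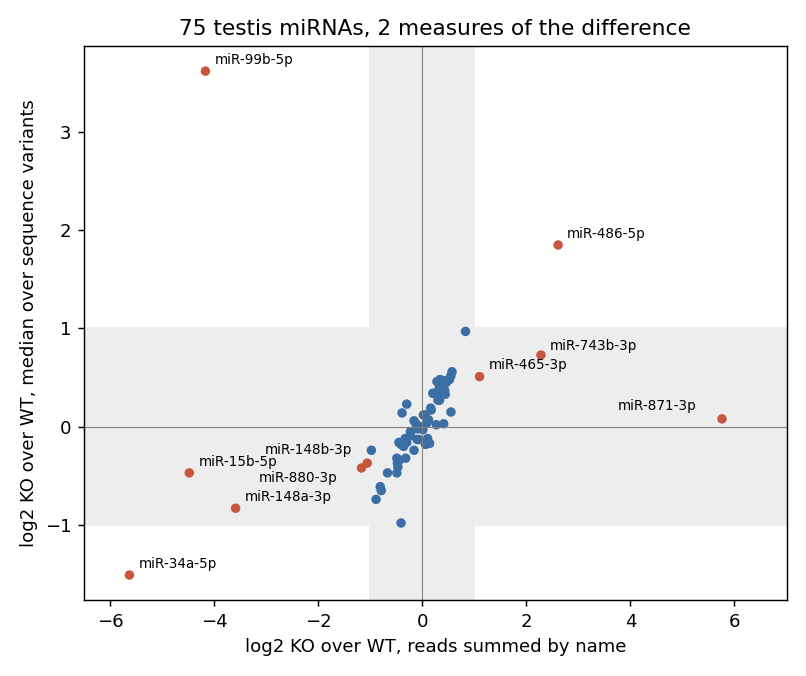
log2 KO over WT for 75 testis miRNAs by reads summed under a name (x) and by the median over sequence variants (y), with the 10 called by name in red and 2-fold zones shaded. Blue points lie within 2-fold by both measures. miR-99b-5p and miR-871-3p lie farthest from the diagonal, followed by miR-34a-5p, miR-15b-5p and miR-148a-3p.

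Endothelial and smooth muscle miRNAs were near equal between the libraries, and the leukocyte set was lower in KO. The endothelial miR-126 pair summed to 636 RPM in WT and 553 in KO, and the smooth muscle and mesenchyme set to 15902 and 15973. The leukocyte set was at 318 and 219 RPM (log2 -0.54), with miR-142-5p at 121 and 88.5 and miR-146a-5p at 157 and 98.6. The 2 variant medians of the leukocyte set were -0.16 and -0.47. Its sparser members differed in sign, with miR-150-5p at 14.6 and 9.96 RPM and miR-223-3p at 3.74 and 4.78. Members of the embryonic germ cell set (miR-291a to 295 and miR-302) stayed below 100 RPM in both libraries, with sums of 9.22 and 9.96.

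tRNA fragments were near equal in total amount and differed little in length. They were named by amino acid where the read began with the first 8 bases of a mature tRNA, and 2 reads led the class.
tRNA-Gly, 18 nt: gcattggtggttcagtgg
tRNA-Val, 33 nt: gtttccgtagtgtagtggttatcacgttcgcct
The Gly read was at 4009 RPM in WT and 3354 in KO (log2 -0.26) and the Val read at 2430 and 2226 (-0.13). Fragments of 18 to 24 nt gave 48.1% of the tRNA class in WT and 46.1% in KO, and those of 30 to 34 nt, the size left by a cut in the anticodon loop, gave 40% and 41.4%. Gly fragments of 30 to 34 nt were at 542 and 555 RPM, Val at 3362 and 3328, and His at 57.8 and 54.9. Lys fragments of that size were at 231 and 172 RPM (-0.42). Val fragments of 18 to 24 nt differed most, 33.2 and 54.6 RPM (0.72, interval 0.51 to 0.93). None of the 8 amino acid and length groups at 20 RPM or more passed 2-fold. Fragments with other starts, 38.2% and 40.8% of tRNA reads, were not named.

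snRNAs are the RNA cores of the spliceosome. U2 fragments accounted for most of the difference in this class, with 513 RPM in WT and 1954 in KO (log2 1.93), and for much of it through 1 read of its 5′ part and that read's end variants. The read is shown with the forms that differ in the first base, which is in capitals.
U2 read: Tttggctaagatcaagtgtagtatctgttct
first base A: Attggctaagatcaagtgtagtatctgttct
first base C: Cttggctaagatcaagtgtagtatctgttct
first base G: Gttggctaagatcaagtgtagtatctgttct
The U2 read was at 14 RPM in WT and 927 in KO. The other forms were at 10.2 and 29.6 RPM with A, 6.54 and 32.2 with C, and 5.02 and 13.7 with G, all higher in KO by a smaller factor. Without the U2 read itself, but with its end variants, U2 fragments differed by 1.04 on the log2 scale. Those variants were at 1.87 and 108 RPM when 1 base shorter and at 3.74 and 193 with T added. The read 1 base shorter at the start went the other way, with 40 counts in WT and 0 in KO. The median over the 90 U2 sequences was 0.43.

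Sums for the other spliceosomal RNAs in Rfam were higher in KO as well, to different degrees. U1 was at 139 and 252 RPM (0.86), U5 at 55.7 and 119 (2.14-fold), U12 at 14.1 and 27 (0.94) and U11, like U12 a part of the minor spliceosome, at 9.1 and 25.5 (1.49). U4 (55.2 and 68.5 RPM, 0.31) and U6 (78.2 and 84.5 RPM, 0.11) differed least. Of the 7 at 20 RPM or more in a library, U2, U5 and U11 passed 2-fold, U11 reaching that level in KO alone. With sequences listed in both files only U2 did (2.11), U5 being at 0.74, U11 at 0.84 and U6 at -0.02. snRNA reads under GenBank entries summed to 3082 counts in WT and 1788 in KO (-0.98), but these sums do not cover the same reads. Their most abundant read was counted 1858 times in WT and 2496 times in KO (0.23), more than the KO sum. In KO it is thus counted under another entry. The median was 0.28 over 23 sequences, and the sum without that read differed by 0.37.

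snoRNA fragments, from RNAs that guide modification of rRNA and snRNA, were higher in KO across most families. Of 35 families at 20 RPM or more in the mean of both libraries, a limit chosen after seeing the data, 32 were above 0, 11 were called higher and 0 lower, and the median was 0.64 on the log2 scale. With that level asked of the WT library 27 of 30 were above 0 and 7 were called higher. Asked of either library it left 45 families, 15 called higher (33.3%) and 0 lower, but 8 of these 15 reached it in KO alone. Reads under GenBank snoRNA entries were at 1323 and 1818 RPM (0.46). SNORD99 was at 85.9 RPM in WT and 272 in KO, SNORD75 at 21.6 and 64.4, SNORD110 at 22.8 and 55.4 and SNORD60 at 22.9 and 51.6. All 12 SNORD99 sequences, all 7 of SNORD75 and all 11 of SNORD110 with at least 20 reads in sum were higher in KO. SNORD57 (348 and 396 RPM) and SNORD31 (116 and 120) were near equal, and SNORD25 (223 and 188) and SNORD27 (54.5 and 42.4) were lower. The U3 snoRNA, which acts in processing of the rRNA precursor, was at 73.4 and 112 RPM.

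rRNA fragments followed, by species. 5S rRNA fragments were at 1535 RPM in WT and 2362 in KO (0.62) and 5.8S at 467 and 664 (0.51), with sequence medians of 0.67 over 206 sequences and 0.70 over 56. Small subunit rRNA was at 2120 and 2197 (0.05). Among GenBank rRNA entries, a 19 nt fragment was counted 3271 times in the WT library and 16338 times in the KO library, 2.12 higher on the log2 scale, and its 5 close variants were all higher in KO, with a median of 1.92. The part of RNA quality or of the amount of broken RNA in these class differences was not tested, and with 1 pool per genotype the genotype and the library cannot be told apart.

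**Figure D5:**
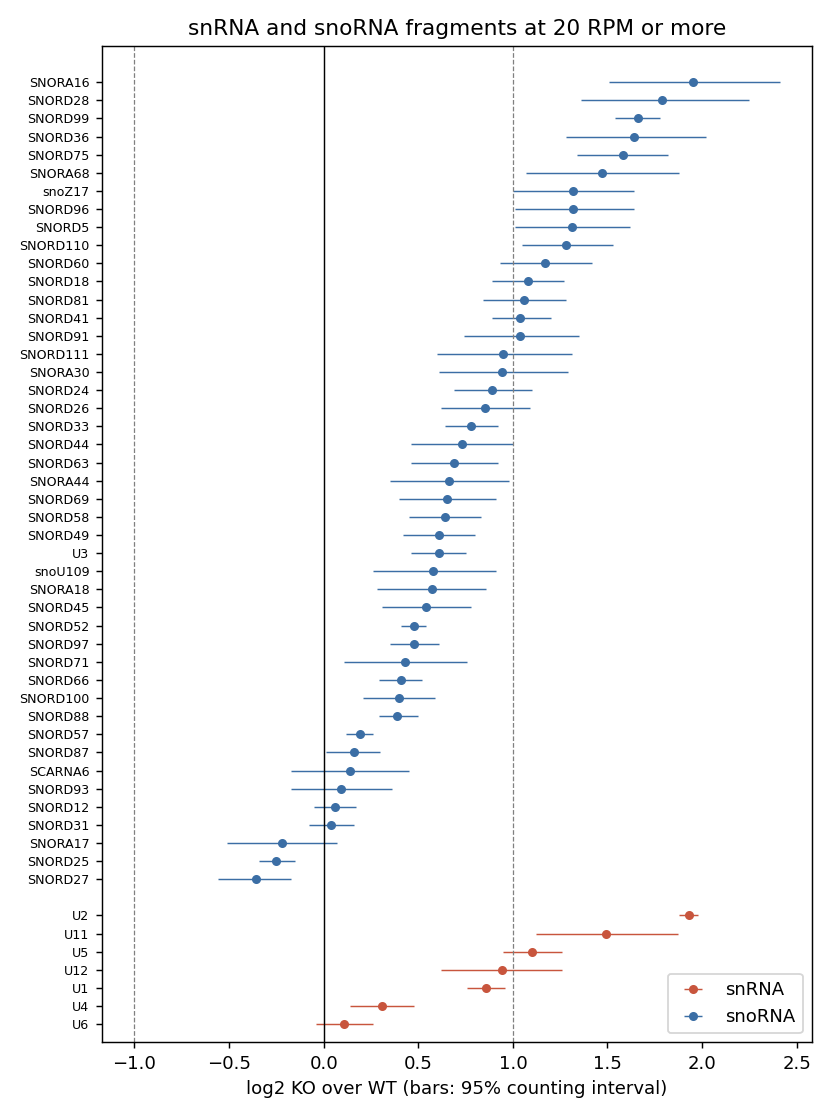
log2 KO over WT of fragments summed by snRNA (red) and by snoRNA family (blue) at 20 RPM or more, with 95% counting intervals and dashed lines at 2-fold. The level is met in either library, and 15 of the 45 snoRNA families shown meet it in KO alone. Of the 30 that meet it in WT, 27 lie to the right of 0. GenBank entries are not shown.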

How the data were processed

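Per the labels' protocols, RNA of pooled testes was made into TruSeq small RNA libraries selected at 18 to 40 nt. In the deposited files every distinct read is 1 line with its count. The authors assigned it, per the file headers, to a miRBase, Rfam, piRNA or GenBank entry, allowing 2 mismatches at most. The submitters' processing notes name Bowtie 0.12.7, TopHat2 and mm9 but not what each was used for.

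Class came from the entry, and minus-strand sequences were turned back to the read strand. Counts were divided by classified reads (8567091 and 9834580). Ratios had exact conditional binomial intervals and shares Clopper-Pearson intervals at 95% (Python 3.11.15, scipy 1.17.1), which cover counting error only, since reads carry no molecular identifiers. The floor is 3 counts. A call needs a 2-fold ratio and an interval without 1, at 100 RPM for miRNAs and 20 RPM otherwise in either library.

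For miRNAs, plus-strand counts under a mature name were added up, and names given to 1 sequence were merged. Sequence variants hold bases 3 to 17 of the most abundant read, and medians used variants with at least 20 reads in sum, 3 or more per miRNA, with 0.5 added to counts. Genes were named through RefSeq accessions (GRCm38.p6, names only), which covered 58.1% and 58.6% of mRNA and unlabelled reads. piRNA reads shown with a gene share 18 bases in a row with reads of that gene alone. edgeR 4.0.16 served only for TMM scaling.

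The rule named the 10 most abundant miRNAs, up to 10 per direction with both sums past 2-fold, 6 with the largest gap between measures, up to 4 per set, 6 piRNA entries with most reads and 6 at each extreme, and 6 mRNAs with most reads, 1 of which is not reported here. Members and lists were chosen with earlier results of these data known. Medians over variants, grouping by the first 20 bases, 1 entry name per sequence and leaving out sequences over 16-fold apart were added after seeing the data. Only miRNA, piRNA and Gpx5 levels were used from the 13-month epididymal files.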

Additional observations from a re-analysis of the deposited data

How the results depend on the processing

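No paired analysis was possible because each genotype is 1 pooled library. Log2 differences of piRNA, miRNA, tRNA and the other classes together moved by at most 0.12 under these alternatives, those of snRNA by more. With distinct sequences at equal depth they were -0.05 for piRNA, -0.01 for miRNA, 0.01 for tRNA, 0.46 for snRNA and 0.03 for all other classes together (0.08 as reported). Without the 10 most abundant sequences of a class they were -0.03, -0.04, 0.10, 0.60 and 0.07 in that order. Single classes among the others moved more. In these settings rRNA was at 0.03 and 0.28 (0.44 as reported) and snoRNA at 0.29 and 0.57 (0.51 as reported). Sequences listed in both files gave -0.02 for piRNA and 1.21 for snRNA, and the WT file's class gave 1.28 for snRNA. Reads without a mismatch gave 0.04 for miRNA, -0.11 for tRNA, 1.47 for snRNA and 0.09 for the others. Sequences with at least 5 reads gave -0.03 for piRNA, 1.32 for snRNA and 0.10 for the others. Without sequences over 16-fold apart the values were -0.01 for piRNA, -0.06 for miRNA, 0.28 for snRNA and 0.10 for the others. Counts of miRNAs called higher and lower, 4 and 6, were 8 and 11 at 20 RPM, 1 and 1 at 1000 RPM, and 2 and 1 by variant median. With other starts 2 were higher, and at 1.5-fold 11 were lower. With other starts the sign turned for miR-871-3p (-1.93), miR-486-5p (-0.20), miR-34a-5p (0.08), miR-15b-5p (0.24) and miR-99b-5p (3.65), the last also by variant median (3.62). Of piRNA entries 19.2% were called higher and 23% lower, compared as shares by a choice made after seeing the data. These were 7.73% and 14.4% of 4942 single sequences (713 lower), 6.41% and 12.5% of 4976 entries with the WT file's name (319 and 623), and 7.21% and 12.8% of 4315 groups by the first 20 bases (311 and 554). At 100 RPM 269 and 324 of 1409 entries were called, at 5 RPM 2541 and 3194 of 13534. The count of snRNAs past 2-fold, 3, was 1 with sequences listed in both files. The filters change the number compared; for the other settings the cause was not tested. The scalings tried moved all miRNAs by at most 0.06.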

Other observations

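Fragments of the larger groups among other Rfam RNAs were near equal. Signal recognition particle RNA, which directs secreted proteins to the endoplasmic reticulum, was at 2470 RPM in WT and 2111 in KO (log2 -0.23). Of its 291 sequences with at least 20 reads in sum, 95 were higher in KO. 7SK RNA, a regulator of transcription elongation, was at 818 and 788 RPM, RNase P RNA at 29.4 and 28.2, and Y RNA at 47.2 and 54.5. Vault RNA, far sparser, had 17 and 45 reads.

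Fragments of cell type marker mRNAs were sparse. The 15 spermatid genes, protamines and sperm tail and energy genes among them, summed to 155 reads in WT and 172 in KO (18.1 and 17.5 RPM). The 6 Leydig cell genes summed to 78 and 62 reads, of which Star, which carries cholesterol into mitochondria for steroid synthesis, gave 73 and 56. The 7 Sertoli cell genes summed to 7 and 10 reads, and the 9 epididymal genes to 32 and 37.

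Below the 100 RPM limit, miR-183-5p was at 42.4 RPM in WT and 4.68 in KO, with a variant median of -2.49 and reads with another start at -3.80. It was chosen after its values were seen.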
